A study of Homo sapiens with 16 samples.

Results

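The genes of mitochondrial ribosomal proteins were read in HepG2 cells, a human hepatoma line, as the members whose gene symbol starts with MRPL or MRPS and a digit. Of 11963 genes with a probe set of their own on the arrays, 51 met this rule, 31 of them named for the large and 20 for the small subunit, on 64 probe sets. The cells had been transduced with a recombinant adenovirus carrying GPI-PLD, a phospholipase that cleaves glycosylphosphatidylinositol anchors, and cultured for 12 h or 6 h, or with a control adenovirus carrying LacZ, the gene of beta-galactosidase, for 12 h or 6 h. Each of the 4 groups had 4 arrays. Every group therefore carried an adenovirus, cells without a virus were not analysed here, and the dose of virus is not given in the sources used here. The labels do not tell separate cultures from repeat arrays of 1 culture, and p-values therefore cover only the spread among these arrays, which may be technical.

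Mitochondrial ribosomes translate the few messages encoded in mitochondrial DNA, all of them for subunits of the respiratory chain and ATP synthase. Their ribosomal RNAs come from the mitochondrial genome, but every one of their proteins is encoded in the nucleus, made in the cytosol and imported. Some of these proteins have counterparts in bacterial ribosomes, such as the relatives of bacterial L18 and S7, and others are found only in mitochondria. Their promoters often hold sites for NRF1, GABP or YY1, factors also known from respiratory chain genes.

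The values were MAS5 signals, linear intensities that had been scaled to the same trimmed mean in every array. A difference is therefore relative to the rest of an array's RNA, and a change in total RNA per cell was not measured; fewer cells with a transcript and less of it per cell cannot be told apart either. Array medians ran from 304.5 to 377.6. GPI-PLD 12 h arrays correlated less with one another (0.942 to 0.945) than the arrays of the other groups did (0.954 to 0.966). Signal ratios of the 3' to the 5' probe sets of GAPDH, a measure of RNA quality, ran from 0.864 to 1.116 and overlapped between the groups. The same ratios of ACTB ran from 1.104 to 1.771, the highest in a GPI-PLD 12 h array, and also overlapped between the groups. All 9 hepatocyte markers on the array reached the signal floor used here, 188.1, with summed signals of 383900 to 474500. Of 6 fibroblast markers on the array 4 also reached it, with summed signals of 1229 to 2451. So did 1 of 4 endothelial and 1 of 3 leukocyte markers, with sums of at most 721.7 and 895.2. GPLD1, the gene of the GPI-PLD enzyme, averaged 291.4 in GPI-PLD and 261.9 in LacZ cells at 12 h, while at 6 h it averaged 249 in GPI-PLD and 306.8 in LacZ cells, on 1 of its 5 probe sets. The difference of GPI-PLD minus LacZ cells was above 0 on 3 of the 5 at 12 h (-0.33 to 0.18 log2) and on 3 of the 5 at 6 h (-0.22 to 0.60), and 0 passed the adjusted test at either time. At 6 h the probe set with the highest difference averaged 71.55 in GPI-PLD and 25.08 in LacZ cells (unadjusted limma p 0.0122, adjusted p 1). Means of this probe set, and of others of the 5, lay below the signal floor of 188.1 in all 4 groups. The labels do not say which part of the gene the virus carried.

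Of the 51 members 49 had a mean signal at or above that floor and were tested among 8102 genes, 30 of the large and 19 of the small subunit. MRPL41 and MRPS18C lay below it. MRPL41 averaged 157 in GPI-PLD 12 h, 127 in GPI-PLD 6 h, 44.1 in LacZ 12 h and 119 in LacZ 6 h arrays. MRPS18C averaged 151 in GPI-PLD 12 h, 199 in GPI-PLD 6 h, 136 in LacZ 12 h and 163 in LacZ 6 h arrays. Neither gene is described further.

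Between 12 h and 6 h the transcripts of mitochondrial ribosomal proteins were mostly lower at the later time under both viruses, in the large and in the small subunit. In GPI-PLD cells 39 of the 49 members had a lower mean at 12 h (79.6%, against 48.4% of tested genes). The median difference was -0.21 on the log2(signal + 63) scale, where all tested genes had a median of 0.01. In LacZ cells 36 members were lower (73.5%, against 49.4% of tested genes), with a median of -0.14, against 0.01 for all tested genes. Limma called a gene at a Benjamini-Hochberg adjusted p under 0.05 over all 8102 genes. By that rule 9 members fell in GPI-PLD cells (18.4%, where 5.07% of all tested genes fell) and 4 fell in LacZ cells (8.16%, against 3.25%). No member rose in GPI-PLD cells, where 4.6% of tested genes did, or in LacZ cells, where 3.64% did. Averaged over the viruses 19 members fell (38.8%, against 8.33% of tested genes) and 0 rose, against 7.79%. Without the adjustment 23 members in GPI-PLD cells, 18 in LacZ cells and 25 in the average had a p under 0.05. Of the 8102 tested genes 1844, 1634 and 2285 had such a p. Without its trend and robust options eBayes called 7, 4 and 17 members, none of them higher. It called 644, 417 and 1123 of all tested genes, in either direction.

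Arrays of the 2 times did not overlap for 16 members in GPI-PLD cells, all lower at 12 h (32.7%, against 7.86% of tested genes), and for 7 in LacZ cells, again all lower (14.3%, against 6.22%). Members without overlap in the higher direction numbered 0 in GPI-PLD cells, against 8% of tested genes, and 0 in LacZ cells, against 6.73%. The 2 time comparisons share no arrays. In both the deposited order puts all 6 h arrays before the 12 h arrays, so order and time cannot be told apart. In 31 members the difference was below 0 in both viruses (63.3%, against 30.9% of tested genes) and in 5 it was above 0 in both (10.2%, against 33.1%). In 4 members, MRPL18, MRPL49, MRPS7 and MRPS17, the 12 h arrays lay below the 6 h arrays under both viruses (8.16%, against 2.6% of tested genes). Across the 49 members the differences in GPI-PLD and in LacZ cells had a Pearson r of 0.512, and across all 8102 tested genes r was 0.417. These correlations run across genes read on the same arrays, and genes are not independent replicates.

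**Figure D1:**
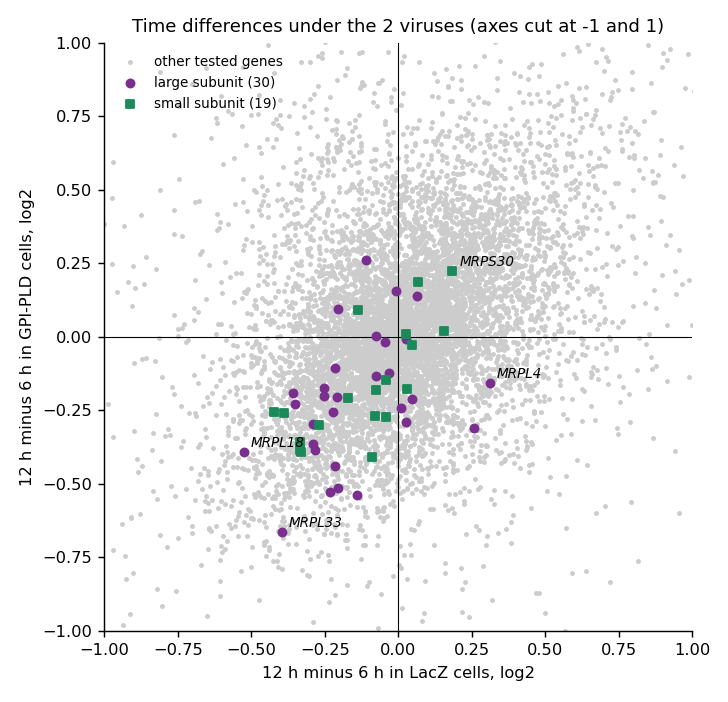
Log2 difference of 12 h minus 6 h for each gene in GPI-PLD cells (vertical axis) and LacZ cells (horizontal axis), with large subunit members as circles, small subunit members as squares and the other tested genes in grey; both axes are cut at -1 and 1. Most members, 31 of 49, lie below 0 on both axes, MRPL33 and MRPL18 with the lowest averages, and MRPS30 lies above 0 on both.

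MRPL18, whose bacterial relative L18 binds 5S ribosomal RNA, was the 1 of 49 members called under both viruses. Of the 8102 tested genes 339 were called under both, in either direction, a larger share than 1 of 49. Its signals were 6533, 8083, 7031 and 6118 at 12 h in GPI-PLD cells, against 8823, 8750, 9573 and 9229 at 6 h. In LacZ cells they were 6821, 7096, 6970 and 6550 at 12 h, against 8956, 9888, 9272 and 11700 at 6 h. Every 12 h array was below every 6 h array of the same virus. The mean was 23.7% lower at 12 h in GPI-PLD cells (log2 -0.39 ± 0.09, SE, limma adjusted p 0.00607) and 31.1% lower in LacZ cells (-0.53 ± 0.09, adjusted p 0.000464).

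MRPL33, the relative of a small bacterial protein near the ribosome's tRNA exit site, had the largest averaged difference of the 49 members. It read 5173, 3942, 5727 and 3803 at 12 h in GPI-PLD cells, against 7353, 7013, 7186 and 7718 at 6 h. In LacZ cells it read 5444, 4925, 5937 and 4325 at 12 h, against 7440, 6636, 5275 and 8041 at 6 h. The times did not overlap in GPI-PLD cells, and in LacZ cells they overlapped through replicate 3 of the 6 h arrays, which was low. With time in GPI-PLD cells MRPL33 fell by 0.66 ± 0.13 (SE, 36.3%, adjusted p 0.00169). LacZ cells gave -0.40 ± 0.13 (adjusted p 0.0723), and MRPL33 fell by 0.53 ± 0.09 in the average (adjusted p 0.000251). Without GPI-PLD 12 h replicates 2 and 4, its lowest arrays in that group, the difference in GPI-PLD cells was -0.42 (adjusted p 0.0679).

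Other large subunit genes fell in GPI-PLD cells as well. MRPL16, whose bacterial relative lies near the peptidyl transferase centre, read 1803, 2029, 1906 and 1893 at 12 h in GPI-PLD cells, against 2649, 2755, 3118 and 2616 at 6 h. In LacZ cells it read 2342, 2426, 2182 and 2066 at 12 h, against 2874, 2419, 2960 and 2411 at 6 h. The GPI-PLD arrays stood apart by time and in LacZ cells 1 of the 12 h arrays, at 2426, lay above 2 of the 6 h arrays. MRPL16 fell by 0.53 ± 0.10 (SE) in GPI-PLD cells (adjusted p 0.000963), and its difference in LacZ cells was -0.23 ± 0.10 (adjusted p 0.183). MRPL24, related to a bacterial protein that starts large subunit assembly, read 1900, 1567, 1881 and 1620 at 12 h in GPI-PLD cells, against 2420, 2539, 2754 and 2506 at 6 h. MRPL24 fell by 0.54 ± 0.11 in GPI-PLD cells (adjusted p 0.00255) and differed by -0.14 ± 0.11 in LacZ cells (adjusted p 0.546). Without GPI-PLD 12 h replicates 2 and 4 its adjusted p in GPI-PLD cells was 0.0576.

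MRPL23, whose bacterial relative sits at the polypeptide exit, read 2379, 2091, 2247 and 2489 at 12 h in GPI-PLD cells, against 2962, 3373, 3553 and 3365 at 6 h, with no overlap. It fell by 0.51 ± 0.12 (SE, adjusted p 0.00547). MRPL39, a mitochondria-specific protein with sequence likeness to threonyl-tRNA synthetase, read 3046, 2886, 3352 and 3036 at 12 h in GPI-PLD cells, against 4083, 4146, 4259 and 4298 at 6 h. Its arrays did not overlap by time either, and it fell by 0.44 ± 0.09 (adjusted p 0.00236). In LacZ cells both genes had differences that did not pass, -0.21 ± 0.12 for MRPL23 and -0.22 ± 0.09 for MRPL39. MRPL40, also mitochondria-specific, fell by 0.36 ± 0.12 in GPI-PLD cells with an adjusted p of 0.0485, a call that was lost under 19 of 26 alternative settings. Its signals there were 2934, 2844, 2694 and 2963 at 12 h, against 3496, 3755, 3825 and 3705 at 6 h, without overlap.

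In the small subunit MRPS17 and MRPS34 fell in GPI-PLD cells. MRPS17, whose bacterial relative binds the small ribosomal RNA early in assembly, read 1876, 2438, 2055 and 2241 at 12 h in GPI-PLD cells, against 2891, 2658, 2535 and 2983 at 6 h. LacZ cells gave 1996, 2522, 2600 and 2221 at 12 h, against 3242, 2881, 2921 and 2758 at 6 h. The times stood apart under both viruses. Means were 22.2% lower in GPI-PLD cells (log2 -0.36 ± 0.11, SE, adjusted p 0.0335) and 20.9% lower in LacZ cells (-0.33 ± 0.11, adjusted p 0.0577). Under 7 of 26 alternative settings MRPS17 was called in LacZ cells. MRPS34, a mitochondria-specific protein, read 833.1, 1012, 980.6 and 942.2 at 12 h in GPI-PLD cells, against 1199, 1199, 1320 and 1303 at 6 h, again without overlap. It fell by 0.39 ± 0.12 in GPI-PLD cells (adjusted p 0.044), and 12 of 26 alternative settings lost that call.

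Besides MRPL18, the genes MRPS7, MRPS33 and MRPL20 fell in LacZ cells. MRPS7, the relative of the bacterial protein that starts assembly of the small subunit head, read 2826, 2927, 3320 and 3199 at 12 h in GPI-PLD cells, against 3593, 3779, 3726 and 3622 at 6 h. In LacZ cells it read 2971, 3106, 3240 and 2700 at 12 h, against 3773, 3888, 4228 and 3915 at 6 h. The times did not overlap under either virus. The difference of MRPS7 was -0.26 ± 0.09 (SE) in GPI-PLD cells (adjusted p 0.0574), and the gene fell by 0.39 ± 0.09 in LacZ cells (adjusted p 0.00508). MRPS33, a mitochondria-specific protein, read 3151, 3103, 3202 and 2793 at 12 h in LacZ cells, against 3723, 3846, 4103 and 4902 at 6 h, without overlap. MRPS33 fell by 0.42 ± 0.10 in LacZ cells (adjusted p 0.0135), a call lost without LacZ 12 h replicate 4 or LacZ 6 h replicate 4, where the adjusted p reached 0.0575. Its difference in GPI-PLD cells, where the times overlapped, was -0.26 ± 0.10. MRPL20, the relative of a bacterial early assembly protein, read 1854, 2099, 1848 and 1866 at 12 h in LacZ cells, against 2479, 2371, 2467 and 2571 at 6 h. The times stood apart there, and it fell by 0.36 ± 0.10 in LacZ cells (adjusted p 0.0317), and 7 of 26 alternative settings lost this call. In GPI-PLD cells, where the times overlapped, MRPL20 differed by -0.19 ± 0.10 (adjusted p 0.268).

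**Figure D2:**
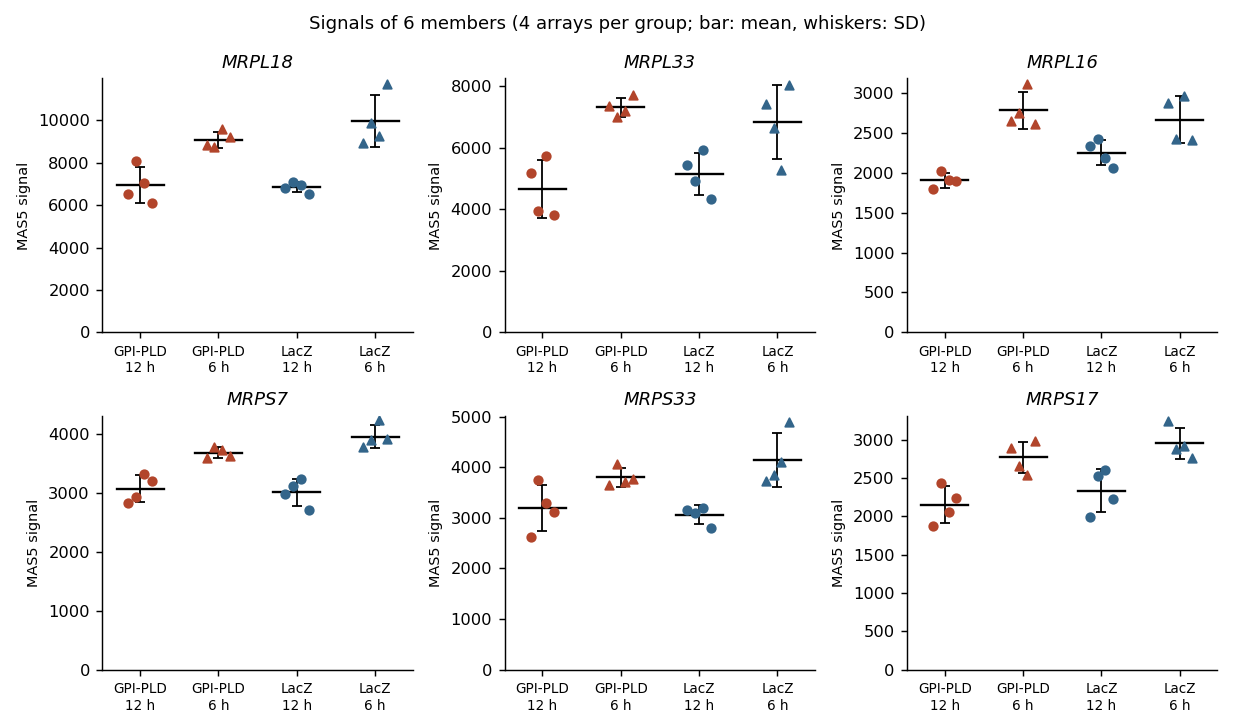
MAS5 signal of 6 members in each array, with the 12 h group left of the 6 h group for each virus, means as bars and SD as whiskers (4 arrays per group); each vertical axis starts at 0. For MRPL18, MRPS7 and MRPS17 the 12 h arrays lie below the 6 h arrays under both viruses, and for MRPL33 and MRPL16 they do so in GPI-PLD cells.

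Averaging the time difference over the viruses, which uses all 16 arrays, called members that neither virus called alone. MRPS28 fell by 0.36 ± 0.09 (SE, adjusted p 0.00549). The other called members, besides those above, were MRPL13, MRPL34, MRPL35, MRPL49, MRPL57 and MRPS16, with averaged differences of -0.29 to -0.21 and adjusted p of 0.00603 to 0.0334. The 8 members with the largest averaged difference, from MRPL33 at -0.53 to MRPL24 at -0.34, kept their calls under all 26 alternative settings. The large subunit gave 13 of these calls and the small subunit 6.

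The highest averaged difference of the 49 members was that of MRPS30. Its protein was once known as a programmed cell death protein, and in structures it lies in the large subunit despite its symbol. MRPS30 averaged 2481 ± 243 at 12 h in GPI-PLD cells, against 2118 ± 228 at 6 h, and 2662 ± 152 at 12 h in LacZ cells, against 2336 ± 86.3 at 6 h (SD, n = 4). The averaged difference of 0.20 ± 0.07 (SE) had an adjusted p of 0.051, and arrays overlapped by time under both viruses. MRPS35 (0.13) and MRPS11 (0.09) of the small and MRPL2 (0.10) of the large subunit also had averaged differences above 0 without passing.

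**Figure D3:**
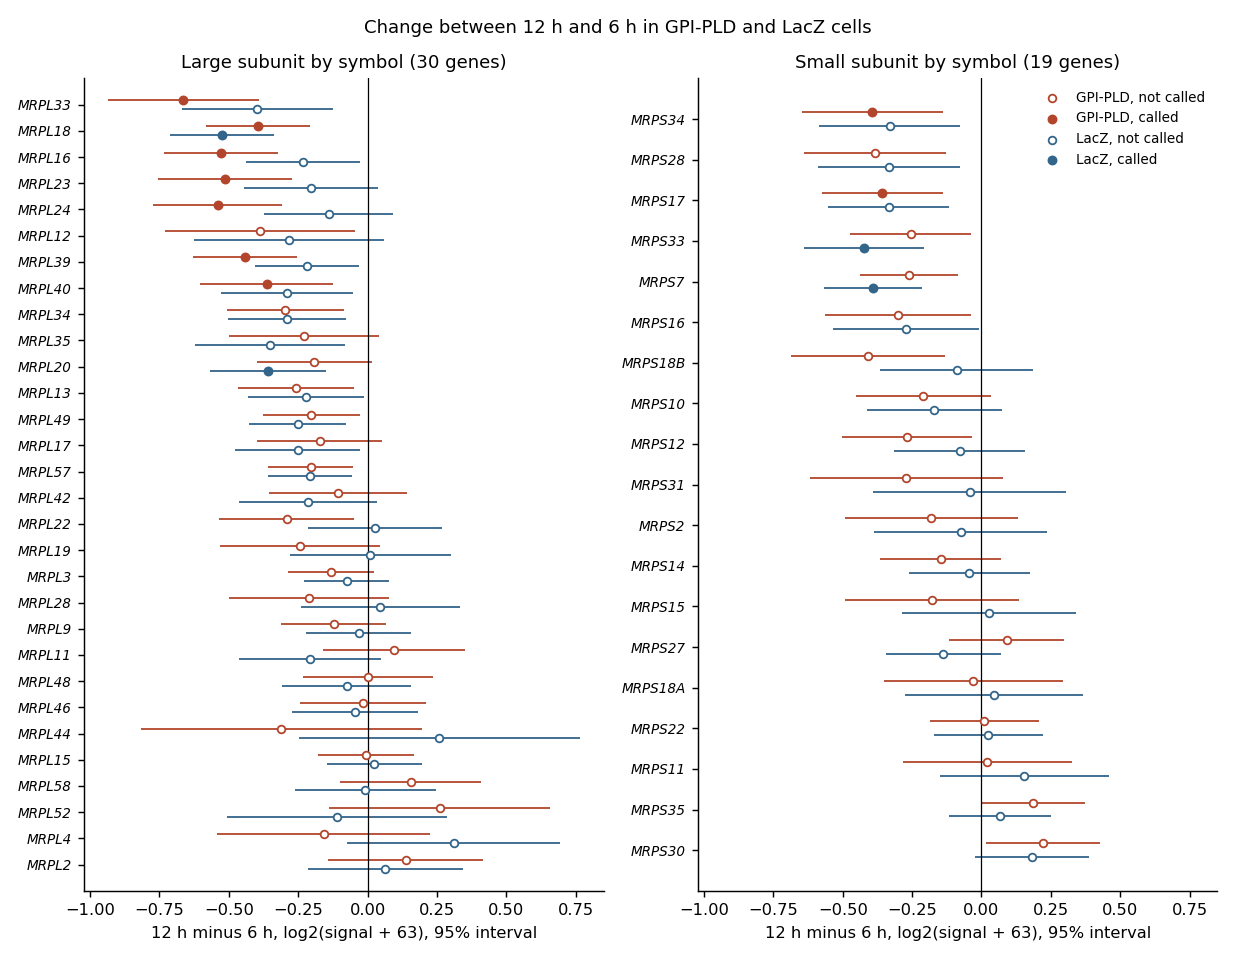
Log2 difference of 12 h minus 6 h with its 95% interval for the 49 tested members, in GPI-PLD cells (upper point of each pair) and LacZ cells (lower point), large subunit on the left and small subunit on the right, ordered by the average; filled points passed the adjusted p of 0.05. Filled points lie left of 0 in both panels, and the intervals are widest for MRPL44, at 0.507 to each side.

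Both subunits had more members below 0 than above it in each virus. Of all tested genes 48.4% lay below 0 in GPI-PLD cells and 5.07% were called lower. In LacZ cells these shares were 49.4% and 3.25%. The median time difference in GPI-PLD cells was -0.21 for the large subunit (25 of 30 below 0, 7 called) and -0.21 for the small subunit (14 of 19 below 0, 2 called). In LacZ cells it was -0.21 for the large subunit (23 of 30 below 0, 2 called) and -0.08 for the small subunit (13 of 19 below 0, 2 called). The gap between the subunits in LacZ cells changed with the settings: with a gene read by the mean of its probe sets the medians were -0.17 and -0.14. Structures place MRPS30 and MRPS18A, both small subunit genes by symbol, in the large subunit, and moving them there gave medians in LacZ cells of -0.17 and -0.09.

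Within single arrays, the mean log2 signal of the 30 large subunit members, centred on their mean over the 16 arrays, ran from -0.15 to -0.08 in GPI-PLD 12 h arrays, against 0.07 to 0.14 in GPI-PLD 6 h arrays. In LacZ cells it ran from -0.10 to -0.05 at 12 h, against 0.04 to 0.09 at 6 h. The small subunit mean ran from -0.12 to -0.03 in GPI-PLD 12 h arrays, against 0.06 to 0.10 at 6 h, and from -0.09 to -0.02 in LacZ 12 h arrays, against 0.004 to 0.14 at 6 h. For both subunits all 8 arrays at 12 h lay below all 8 at 6 h. The difference between the 2 subunit means, centred in the same way, averaged -0.02 ± 0.04 in GPI-PLD 12 h, 0.03 ± 0.04 in GPI-PLD 6 h, -0.02 ± 0.02 in LacZ 12 h and 0.01 ± 0.06 in LacZ 6 h arrays (SD, n = 4). The ranges of these 4 groups overlapped.

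**Figure D4:**
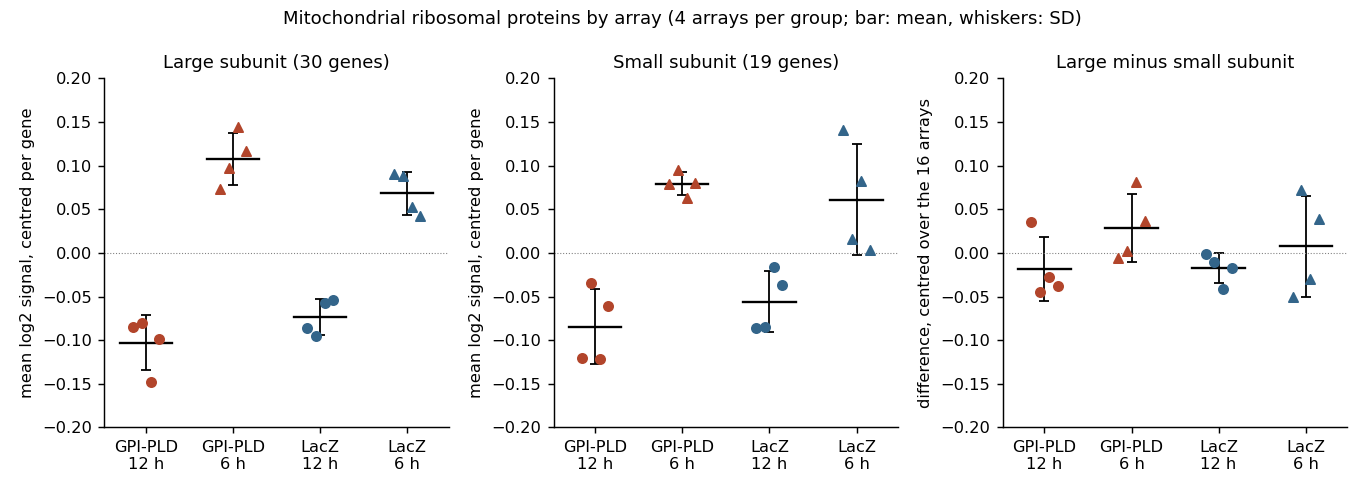
Mean log2 signal per array of the large subunit members (left), the small subunit members (middle) and their difference (right), each centred over the 16 arrays, with the mean and SD of each group of 4 arrays. In the left and middle panels the 12 h arrays of both viruses lie below 0 and the 6 h arrays above it, while in the right panel the groups overlap.

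Members with a bacterial counterpart and those specific to mitochondria were set side by side, a split that the naming rule did not use. No sequences were compared for this split. It puts MRPS18A and MRPS18B among the mitochondria-specific members, although their symbols follow the bacterial protein S18. Of 30 members with a bacterial counterpart 26 had an averaged time difference below 0 and 13 were called, with a median of -0.20. Of 19 mitochondria-specific members 13 were below 0 and 6 were called, with a median of -0.04. In GPI-PLD cells the medians were -0.24 and -0.11, and in LacZ cells -0.19 and -0.09. Of all tested genes 47.2% were below 0 in the average and 8.33% were called lower. The difference between these classes was not tested.

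A few genes had probe sets that disagreed. MRPL57 fell in the average on the probe set read for it (-0.21 ± 0.05, SE, adjusted p 0.00667), while its other 2 probe sets had averaged differences of 0.15 ± 0.16 and 0.24 ± 0.20. For MRPS31 the probe set read for the gene differed by -0.27 ± 0.17 in GPI-PLD cells and did not pass. Its second probe set fell by 0.74 ± 0.18 there (adjusted p 0.0214 over all 22215 probe sets outside the controls) and differed by 0.08 ± 0.18 in LacZ cells. A second probe set of MRPS30 had an averaged difference of -0.04 ± 0.17.

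GPI-PLD and LacZ cells were then compared at each time, the comparison the study was built on. At 12 h 0 of 49 members were called, as were 0% of all tested genes. At 6 h and averaged over the times it was again 0 members and 0% of genes. Members with an unadjusted p under 0.05 numbered 4 at 12 h, 0 at 6 h and 1 in the average. Of the 8102 tested genes 584, 376 and 340 had such a p. Without its trend and robust options eBayes called 0 members in each, and 0, 2 and 0 of all tested genes. The median difference of the members was -0.01 at 12 h and 0.04 at 6 h. Single arrays moved these medians: at 12 h it was -0.047 without LacZ 12 h replicate 1 or replicate 2 and 0.0011 without GPI-PLD 12 h replicate 3, and at 6 h it was 0.009 without LacZ 6 h replicate 4. Over all arrays left out singly it ran from -0.047 to 0.0011 at 12 h and from 0.009 to 0.042 at 6 h. For the typical member the 95% interval reached 0.239 log2 to each side, and at either time the intervals of 45 of 49 members lay between -0.5 and 0.5.

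The smallest p at 12 h among the members was that of MRPL11, whose bacterial relative is part of the GTPase centre. At 12 h it read 2460, 2545, 2263 and 2302 in GPI-PLD cells and 2083, 1840, 1396 and 2116 in LacZ cells. All GPI-PLD arrays were above all LacZ arrays, and the difference was 0.37 ± 0.12 (SE, p 0.00663, adjusted p 0.497, 95% interval 0.11 to 0.63). At 6 h it read 2255, 2132, 2223 and 2331 in GPI-PLD cells and 2036, 1949, 2674 and 1927 in LacZ cells, where the groups overlapped. MRPL39 (-0.22 ± 0.09), MRPL16 (-0.23 ± 0.10) and MRPL4 (-0.40 ± 0.19), the last related to a bacterial exit tunnel protein, were lower in GPI-PLD cells at 12 h, with adjusted p of 0.663 to 0.685. MRPL44 had the lowest difference of the 49 members at 12 h on the probe sets read, -0.44 (limma adjusted p 0.718). The second probe set of MRPS31 gave -0.45 ± 0.18 at 12 h (p 0.0207, adjusted p 0.667 over all probe sets). At 6 h the smallest p on the probe sets read was that of MRPL24 (0.21 ± 0.11, adjusted p 0.998).

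The difference of the virus effect between the times was called for 0 members and for 0.0123% of tested genes. Unadjusted, 2 members had a p under 0.05, as did 610 of the 8102 tested genes. Without trend and robust eBayes called 0 members and 0 of all tested genes. Among probe sets read for members MRPL24 had the smallest p (difference of effects -0.40 ± 0.16, SE, adjusted p 0.539). MRPL16 followed (-0.30 ± 0.14, adjusted p 0.639). Some second probe sets had a smaller limma p in the fit of all probe sets. That of MRPS31 gave -0.82 ± 0.26 (p 0.0043, adjusted p 0.551), against -0.23 ± 0.24 on the probe set read. That of MRPS18B gave -0.49 ± 0.18 (p 0.0121, adjusted p 0.592), against -0.32 ± 0.19 on the probe set read. So the members called with time under 1 virus and not the other were not shown to differ between the viruses. Among them are MRPL16, MRPL23, MRPL24, MRPL33, MRPL39, MRPL40, MRPS17 and MRPS34, called in GPI-PLD cells. MRPS7, MRPS33 and MRPL20, called in LacZ cells, are others.

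Other genes of the same machinery, were read from lists chosen with earlier results of these data known. Their counts in the average stand beside 8.33% of all tested genes called lower and 7.79% called higher, at a median of 0.01. The mitoribosome genes named outside the rule had 3 tested members and 0 calls, with averaged time differences of -0.01 for DAP3, a small subunit protein first described in cell death, -0.44 for GADD45GIP1 and 0.07 for PTCD3. Of 14 assembly factors, 7 had averaged differences below 0 and 0 were called, with a median of 0.0003. An unadjusted p under 0.05 was found for 4 of them, and for 2285 of the 8102 tested genes. Without trend and robust eBayes called 0 assembly factors. Of 9 translation factors 1 was called, and the list had a median of -0.13. This was TACO1, an activator of cytochrome oxidase subunit translation, which differed by -0.38 ± 0.13 (SE) in GPI-PLD cells (adjusted p 0.0722). It averaged 1279 at 12 h in LacZ cells, against 2071 at 6 h (-0.68 ± 0.13, adjusted p 0.00149).

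Further partners of the mitochondrial ribosome were called in both directions, in small counts whose difference from those shares of all tested genes was not tested. Of 14 aminoacyl-tRNA synthetases of mitochondria 2 rose and 0 fell in the average, at a median of -0.11. GARS1, which also serves the cytosol, averaged 10130 at 12 h in GPI-PLD cells, against 5618 at 6 h, and 9647 at 12 h in LacZ cells, against 5673 at 6 h (averaged log2 0.79 ± 0.08, adjusted p 1.47e-07). FARS2, the phenylalanine enzyme of mitochondria, rose by 0.38 ± 0.12 in the average (adjusted p 0.0368). Of 20 genes of mitochondrial transcription and RNA processing 2 rose and 3 fell in the average, at a median of 0.01. SUPV3L1, a helicase of RNA decay, rose by 0.60 ± 0.09 (adjusted p 6.45e-05) and MTPAP, the poly(A) polymerase, by 0.31 ± 0.10 (adjusted p 0.0291). SLIRP, which stabilises mitochondrial messages, fell by 0.33 ± 0.07 (adjusted p 0.00155), SSBP1, the DNA-binding protein of the replication fork, by 0.22 ± 0.05 (adjusted p 0.00468), and HSD17B10, a subunit of mitochondrial RNase P, by 0.27 ± 0.08 (adjusted p 0.0203). Of 8 transcription factors known from mitochondrial genes 1 rose and 0 fell in the average, at a median of 0.12. MYC averaged 14620 at 12 h in GPI-PLD cells, against 6074 at 6 h, and 14010 at 12 h in LacZ cells, against 5419 at 6 h (averaged log2 1.31 ± 0.08, adjusted p 6.28e-11).

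The respiratory chain, some of whose subunits these ribosomes make, and the ribosome of the cytosol were read as the groups most like the members. Of 64 respiratory chain and ATP synthase subunits 58 had an averaged time difference below 0, and 32 fell, with a median of -0.21. This list held no subunit encoded in mitochondrial DNA, and so none that these ribosomes make. Of 55 cytosolic ribosomal proteins 25 were below 0 and 2 fell, with a median of 0.003. The members stood with 39 of 49 below 0 and 19 called, at a median of -0.16. Of all tested genes 47.2% were below 0 and 8.33% were called lower. Whether the groups differ from one another was not tested.

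**Figure D5:**
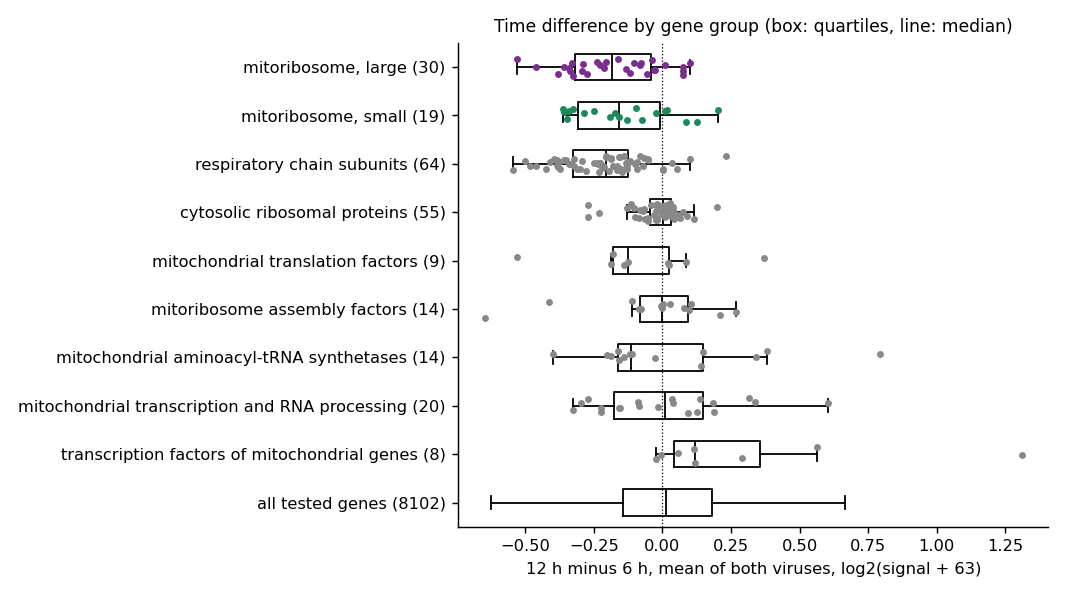
Averaged log2 difference of 12 h minus 6 h by gene group, with the number of tested genes in brackets; points are genes, boxes the quartiles with the median as a line, and whiskers reach the last gene within 1.5 times the quartile range. Medians of both mitoribosome subunits (-0.18 and -0.16) and of the respiratory chain (-0.21) lie left of 0, and that of the cytosolic ribosomal proteins (0.003) lies at 0.

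Promoters were read to see what the members share in sequence. RefSeq windows of GRCh38.p14, from 250 bases before to 50 after the start of a gene, were found for 45 of the 51 members and were searched on both strands. The ETS letters CCGGAAG, bound by GABP, occurred in 18 of the 45 windows (40%), where 10.7% of all 27305 promoters and 18.8% of the 6708 windows of tested genes held them. Tested genes, which passed the same signal floor as most members, are the closer background. The YY1 letters AAGATGGCG occurred in 8 (17.8%, against 1.85% of all promoters and 4.31% of those of tested genes). The NRF1 letters GCGCANGCG occurred in 7 (15.6%, against 8.05% of all promoters), which is near the 14.8% of tested genes. The E-box CACGTG, bound by MYC and other factors, occurred in 3 (6.67%, against 7.43% of all promoters and 10.4% of those of tested genes). No motif contains another, but the ETS and YY1 motifs can overlap by the letters AAG, and the YY1 and NRF1 motifs by GCG. A match is a description of the letters and not a measured binding site.

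The 8 members with the YY1 letters were MRPL22, MRPL42, MRPL46, MRPL52, MRPS10, MRPS18A, MRPS18B and MRPS30, and 0 of them were called lower in the average, with a median of -0.08. Of the 35 tested members without these letters in their window 15 were called, with a median of -0.17. Across the 6708 tested genes with a window 5.54% of 289 with the letters and 8.82% of 6419 without them were called lower, with medians of 0.001 and 0.01. Members with the ETS letters gave 7 of 17 called (median -0.17) and those without 8 of 26 (-0.13). Across tested genes 10.8% with the ETS letters and 8.18% without them were called lower. This contrast of motifs was picked after the values were seen and was not tested.

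The windows printed here hold examples of it: MRPL33 and MRPS33, called lower in the average, with ETS or NRF1 letters, and MRPS30 and MRPS18A, not called, with YY1 letters. Capitals mark the matches of the motifs, in either orientation, and each run reads 5′ to 3′ on the strand of its gene. The windows are chr2:27771469-27771768 on the plus strand for MRPL33, chr7:141014903-141015202 on the minus strand for MRPS33, chr5:44808697-44808996 on the plus strand for MRPS30 and chr6:43687742-43688041 on the minus strand for MRPS18A.
MRPL33: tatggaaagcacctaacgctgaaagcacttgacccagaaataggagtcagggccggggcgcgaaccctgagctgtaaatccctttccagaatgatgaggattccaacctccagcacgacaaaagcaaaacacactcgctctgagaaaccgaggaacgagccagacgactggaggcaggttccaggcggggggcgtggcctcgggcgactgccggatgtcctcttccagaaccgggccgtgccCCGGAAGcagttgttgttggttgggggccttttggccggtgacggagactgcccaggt
MRPS33: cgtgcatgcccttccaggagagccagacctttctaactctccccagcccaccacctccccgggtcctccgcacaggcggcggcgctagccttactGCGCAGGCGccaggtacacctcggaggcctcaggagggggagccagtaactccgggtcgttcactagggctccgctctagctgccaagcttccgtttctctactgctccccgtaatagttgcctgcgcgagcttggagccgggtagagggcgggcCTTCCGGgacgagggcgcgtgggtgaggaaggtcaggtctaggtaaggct
MRPS30: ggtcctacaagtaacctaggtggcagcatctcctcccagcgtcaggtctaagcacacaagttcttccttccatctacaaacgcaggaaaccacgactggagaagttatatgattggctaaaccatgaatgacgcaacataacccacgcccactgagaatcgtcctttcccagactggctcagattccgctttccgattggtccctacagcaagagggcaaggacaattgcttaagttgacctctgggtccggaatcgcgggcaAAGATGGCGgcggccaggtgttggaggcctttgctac
MRPS18A: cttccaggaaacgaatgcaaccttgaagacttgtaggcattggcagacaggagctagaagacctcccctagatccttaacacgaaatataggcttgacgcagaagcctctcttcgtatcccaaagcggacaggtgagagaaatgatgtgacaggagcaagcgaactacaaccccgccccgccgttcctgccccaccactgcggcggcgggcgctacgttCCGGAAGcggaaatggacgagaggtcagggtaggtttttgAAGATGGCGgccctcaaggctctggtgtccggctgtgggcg
Counted from 1 at the first transcribed base, with -1 just before it, the ETS letters of MRPL33 begin at -8. In MRPS33 the NRF1 letters begin at -155 and the ETS letters, on the other strand, at 1. The YY1 letters begin at 14 in MRPS30 and at 10 in MRPS18A, which also holds ETS letters at -31.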

How the data were processed

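RNA from 16 samples of HepG2 cells was read on 1 Affymetrix array each, 4 per group of virus and time, per the labels. The deposited intensity values are MAS5 signals, per the submitters' processing notes; scanner and further steps are not given in the sources used here. No labels give batches or replicate numbers, so arrays were numbered in deposited order. In that order all 6 h arrays come before all 12 h arrays.

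Of 22283 probe sets 68 controls were left out, and 19065 had a single symbol. The scale was log2(signal + 63), the pseudocount of 63 being the 20th percentile over every array. The single-symbol probe set with the highest log-scale mean stood for its gene, which was tested where this mean was at least the 40th percentile of such means (188.1). Limma 3.58.1 in R 4.3.3 fitted all 4 groups (lmFit, contrasts.fit, eBayes with trend and robust), with Benjamini-Hochberg adjustment over 8102 genes in each contrast. Probe sets were tested in a fit of all 22215. Scripts were tested on simulated data. Figures used Python 3.11.15 and matplotlib 3.10.9.

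The members, lists and motifs were chosen with earlier results of these data known. Genes were named by a rule: called members (at most 8 per contrast), and the 5 with the smallest p where fewer than 5 were called. Members whose symbol and structure differ, and the 3 called genes with the smallest p per list and time contrast, were added. Of the 5 chosen for each virus contrast and for the difference of effects, not all are described. Further members were named after their values were seen. These were MRPS17 in GPI-PLD cells, and MRPS7 and MRPL20 in the virus that did not call them. Others were MRPL2, MRPS2, MRPS11, MRPS35, the remaining called members, and the second probe sets of MRPS18B and MRPS31 in comparisons of the viruses. GADD45GIP1, PTCD3, MTPAP, HIRA, PIERCE1 and FAU were also named after their values were seen. Alternatives were other scalings, pseudocounts, filters and probe set rules, array weights, eBayes without trend and robust, and each array left out. A fit without both GPI-PLD 12 h replicates 2 and 4 was added after seeing the data.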

Additional observations from a re-analysis of the deposited data

Results flagged for a closer look

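Among 100 groups of 4 arrays, those of 25 features, 3 held an array far from the others, where about 5% would by chance. The features were members named for the contrasts, the mean of each subunit and the difference between these means. MRPL11 in LacZ cells at 6 h had a signal of 2674 in replicate 3, against 1927 to 2036 in the other arrays, a gap of 0.833 of the group's range. MRPL20 in LacZ cells at 12 h read 2099 in replicate 2, against 1848 to 1866 elsewhere (0.924 of the range). MRPS30 in LacZ cells at 12 h read 2435 in replicate 4, against 2716 to 2759 (0.875 of the range). These values lie in different arrays, and their origin was not tested.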

How the results depend on the processing

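Over 26 alternative settings, the count of members called lower ran from 6 to 12 in GPI-PLD cells, 3 to 9 in LacZ cells and 17 to 22 in the average. In LacZ cells 9 were called under scaling to the 75th percentile, which lowered the median of all genes to -0.04. Members called higher numbered 0 in each virus under each of these settings and 1, MRPS30, in the average under 7. With single arrays left out, the median of the large subunit in LacZ cells ran from -0.21 to -0.15, that of the small subunit from -0.16 to -0.046, and that of the small subunit in GPI-PLD cells from -0.25 to -0.17. For the large subunit in LacZ cells it was -0.26 with 75th percentile scaling, and -0.17 with probe sets of a gene averaged or with subunits by structure. For its average it was -0.15 with quantile normalization or probe set means, -0.21 with 75th percentile scaling or without both GPI-PLD 12 h arrays, and -0.15 by structure. For the small subunit it was -0.25 in GPI-PLD cells without both arrays and -0.26 by structure, and in LacZ cells -0.13 with 75th percentile scaling and -0.14 with probe set means. The averaged virus difference of MRPS30 was -0.12 and turned to 0.011 with probe set means. The number of arrays and the spread between them limited precision, and the causes were not tested.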

Other observations

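Of the 45 members with a promoter window, 13 (28.9%) started within 1000 bases of a gene running the other way, against 22.9% of tested genes with a window. One such pair is MRPL46 and MRPS11, a large and a small subunit gene whose starts lie 320 bases apart, and neither was called with time (averaged differences -0.03 and 0.09). In 6 pairs both genes were tested, 3 had averaged differences of the same sign and 0 of the neighbours were called. Of all tested genes 8.33% were called lower and 7.79% higher. MRPL40 fell by 0.33, while its neighbour HIRA, a histone chaperone, differed by -0.07 (adjusted p 0.754). MRPL49 fell by 0.23, while FAU, which encodes a cytosolic ribosomal protein and starts 49 bases away, differed by -0.06 (adjusted p 0.695). In another pair the neighbour had the larger difference. MRPS2 differed by -0.13 (limma adjusted p 0.48) and its neighbour PIERCE1 by -0.46 (adjusted p 0.0648).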
